A study of Mus musculus with 12 samples.

Results

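Transcripts of 41 genes that build and drive the mitotic spindle, compact and separate the chromosomes and divide the cell were examined in follicle cells of WT mice and of mice lacking sphingosine kinase genes. The genes formed a list of mitotic kinesins, spindle factors, kinases, condensin subunits, anaphase regulators and cytokinesis factors, chosen by function and matched by Ensembl identifier. All 41 were found among the 26382 genes present in both deposited tables. They fall into 6 role groups, with 12 kinesin motors, 8 spindle assembly factors, 3 mitotic kinases, 5 cytokinesis factors, 9 genes for condensin subunits and topoisomerase, and 4 anaphase regulators.

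RNA was sequenced from mural granulosa cells (MGCs, which line the follicle wall) and from cumulus cells, the granulosa cells that surround the oocyte, with 3 libraries for each genotype in each cell type. Female mice of 21 to 23 days were given 5 IU eCG to grow follicles and, 48 h later, 5 IU hCG, a hormone with LH activity, and cells were taken 2 h after hCG. WT mice were of the C57/BL6 strain. Sphk1/2gc-/- mice (Sphk1-/-, Sphk2 fl/fl, Fshr-Cre) lacked Sphk1 in every tissue and carried floxed Sphk2 deleted by Cre under the Fshr promoter, which is active in granulosa cells, so loss of Sphk1 outside the follicle is part of the genotype. The labels do not say how many mice gave a library or whether libraries came from separate mice, so p-values measure the spread between these libraries, which may be technical. Values are FPKM, that is fragments scaled to exon length and to the total counted in the library, and the tables imply 16100365 to 19761604 reads in a library.

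The targeted genes were read first. Sphk1 gave 1.68, 1.88 and 0.460 FPKM across the WT MGC libraries and 0.432, 0.557 and 0.104 FPKM in Sphk1/2gc-/- MGC libraries, so the groups overlapped by 1 WT library. Sphk2, counted over the whole gene, gave 5.26, 5.86 and 5.18 FPKM and 4.51, 4.68 and 6.29 FPKM in the same MGC groups, which overlapped. In cumulus cells Sphk1 was at 0.0911, 0.0699 and 0.0954 FPKM in the WT libraries and at 0.0778, 0.456 and 0.557 FPKM under the Sphk1/2gc-/- label, higher in 2 of the latter than in any WT library. Sphk2 was at 0.403, 0.602 and 0.520 FPKM and at 0.434, 0.572 and 0.752 FPKM in the same cumulus groups. Values over whole genes need not fall when only some exons are removed, and in cumulus cells they did not fall in the libraries labelled Sphk1/2gc-/-, so these values give no check of the cumulus labels and the libraries are named by their label. 1 Sphk1/2gc-/- MGC library (replicate 3) stood apart from the other 5 MGC libraries, with correlations of 0.912 to 0.939 with them, and its values are also given apart. WT cumulus replicate 3 listed 27541 genes above 0 against 18788 to 19289 in the other 5 cumulus libraries. Of the granulosa markers, Fshr, the FSH receptor, was at 50.0324 to 118 FPKM in cumulus libraries, while Foxl2 (1.62 to 3.23 FPKM) and Amh (0.102 to 2.16 FPKM) were low there.

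Mitosis begins with the packing of chromosomes by condensin complexes and topoisomerase and with the assembly of a bipolar spindle by motor proteins that slide, cross-link and depolymerise microtubules. Kinases of the Aurora and Polo families start and time these steps, the anaphase-promoting complex and separase release the sister chromatids, and a central spindle then directs a contractile ring that cuts the cell. Most of these transcripts are made late in each cell cycle and fade in cells that leave it. Granulosa cells of growing follicles divide rapidly, and they stop dividing and differentiate after the ovulatory hormone surge.

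**Figure D1:**
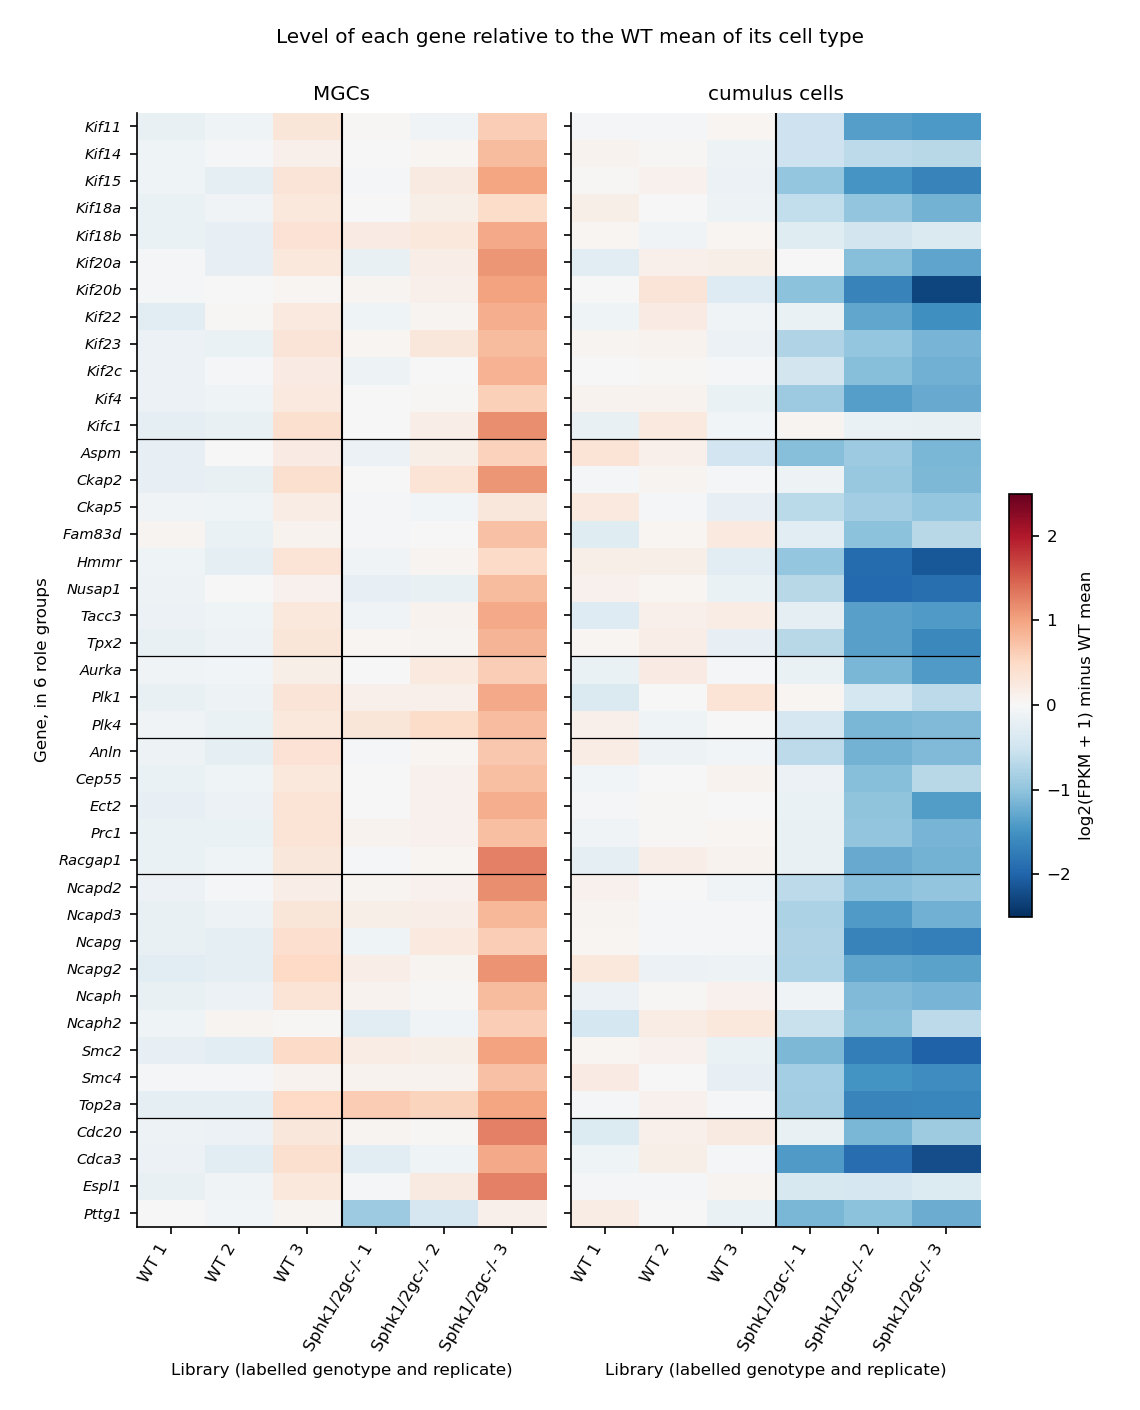
Level of each of the 41 genes (rows, in 6 role groups divided by lines) in each of 12 libraries (columns), as log2(FPKM + 1) minus the mean of the 3 WT libraries of the same cell type, where blue is lower and red higher. In cumulus cells, replicates 2 and 3 labelled Sphk1/2gc-/- hold the lowest value of each gene and replicate 1 is often intermediate, while in MGCs replicate 3 of Sphk1/2gc-/- is the reddest column for all 41 genes.

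In cumulus cells 16 of these genes, most of them for condensin subunits, motors and spindle factors, were called lower in the libraries labelled Sphk1/2gc-/-. The mean under that label was 24.5% to 76.5% of the WT mean over the 41 genes, with a median of 46.4%, genes that did not pass the test included. Of the 41 genes 40 passed the filter of a mean of 0.5 FPKM in a genotype, among them Kif14 and Espl1 through the WT libraries alone, so that a lower value was built in for these 2. The other 38 had a median log2 fold change of −0.97, against −0.05 over 10606 genes that passed in both genotypes. A call here needs a change of at least 2-fold on the scale of log2(FPKM + 1) and an adjusted p no higher than 0.05, limits that leave some genes with a larger change in FPKM uncalled. By that rule 16 of the 40 fell (Kif11, Kif15, Kif20b, Kif4, Tpx2, Aspm, Nusap1, Hmmr, Smc2, Smc4, Ncapd3, Ncapg, Ncapg2, Top2a, Pttg1 and Cdca3), where 3.85% of all genes tested were called lower, and 0 rose, where 4.19% of all genes were called higher. On the adjusted p alone 25 of the 40 fell (24 of the 38), against 12.7% of all genes. Kif14, Kif18a, Kif23, Kif2c, Ckap5, Plk4, Anln, Ncapd2 and Ncaph2 are the 9 that this adds, and 6 of them (Kif14, Kif18a, Kif23, Kif2c, Anln and Ncapd2) passed both limits with a pseudocount of 0.1. The 3 values of each group did not overlap for 33 of the 40 (31 of the 38), all lower under the Sphk1/2gc-/- label, against 24.1% of all genes lower and 18.2% higher. Groups overlapped for Kif20a, Tacc3, Fam83d, Plk1, Racgap1, Ncaph and Cdc20. In these bulk samples a smaller share of dividing cells and less of these RNAs in each cell cannot be told apart. The count of 16 varied with the libraries. There were 32 genes called without replicate 1 of the libraries labelled Sphk1/2gc-/-. Without any 1 of the other 5 libraries there were 12 to 18, the 18 being without WT replicate 3. Shares of all genes called in these fits are not given here, so the change in count has no reference. Without a filter on low values Aspm, Kif11 and Nusap1 were no longer called.

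Some other cell markers moved with these groups, and their part in the result was not tested. Of 12 granulosa markers tested in cumulus cells 7 were called lower and 0 higher, where 3.85% of all genes were called lower and 4.19% higher. The summed level of these 12 was 3973 to 5127 FPKM in WT libraries and 2618 to 2982 FPKM under the Sphk1/2gc-/- label. Inha, the most abundant of them, did not fall (log2 fold change 0.23, limma adjusted p = 0.437). Of 7 genes of the cumulus response to the LH surge 2 were called higher and 0 lower, and they summed to 376 to 843 FPKM in WT and 1182 to 1476 FPKM under the Sphk1/2gc-/- label. Summed oocyte markers were low, at 4.75 to 10.3 FPKM in WT and 2.45 to 3.29 FPKM in the other group, with 3, 0 and 0 of the 14 markers at 0 in the WT libraries and 3, 1 and 6 in the others. Erythroid markers summed to 4.37 to 27.0 FPKM in WT and 0.3002 to 1.78 FPKM under the Sphk1/2gc-/- label, and endothelial markers were at most 1.83 FPKM in all 6 libraries. Of 6 theca and stroma markers tested 2 were called lower and 0 higher, and of 5 leukocyte markers 1 lower and 0 higher. The summed levels of both of these lists overlapped between the groups.

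Cdca3, Hmmr, Kif20b and Smc2 had the largest falls in cumulus cells on the log2(FPKM + 1) scale among genes with a promoter in the reference, and their promoters are shown because late cell cycle genes are known to be controlled through a pair of short elements near the start. These are the CHR (searched as TTTGAA and, as its known variant forms, TTCGAA and the palindrome TTTAAA) and the CCAAT box, both searched on both strands with overlapping matches counted, and both in capitals here. Each run covers 100 bases before to 50 bases from the RefSeq start, 5′ to 3′ on the gene's strand in GRCm38.p6. Cdca3 is at chr6:124830076-124830225 (plus strand), Hmmr at chr11:40733388-40733537 (minus), Kif20b at chr19:34922258-34922407 (plus) and Smc2 at chr4:52439121-52439270 (plus).
Cdca3: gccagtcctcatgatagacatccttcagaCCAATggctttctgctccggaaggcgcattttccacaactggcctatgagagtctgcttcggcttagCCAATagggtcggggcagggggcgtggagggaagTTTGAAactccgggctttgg
Hmmr: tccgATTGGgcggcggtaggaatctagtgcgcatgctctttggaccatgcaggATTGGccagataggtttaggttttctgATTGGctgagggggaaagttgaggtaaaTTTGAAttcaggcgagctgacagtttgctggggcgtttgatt
Kif20b: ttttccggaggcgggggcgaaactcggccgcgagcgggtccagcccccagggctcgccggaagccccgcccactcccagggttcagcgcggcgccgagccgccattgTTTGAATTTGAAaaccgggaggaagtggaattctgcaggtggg
Smc2: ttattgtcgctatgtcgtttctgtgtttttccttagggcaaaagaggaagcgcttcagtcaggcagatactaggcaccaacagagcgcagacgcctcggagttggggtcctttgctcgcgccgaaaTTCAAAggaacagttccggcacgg
All 4 carry a CHR within 50 bases after the start, and Cdca3 and Hmmr carry CCAAT boxes upstream of it within the printed window.

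Across the list, 38 of 41 genes had a RefSeq promoter, from 250 before the start to 50 after it, with none given for Kif20a, Tpx2 and Smc4. A CHR was present in 32 of the 38 (84.2%), against 29.0% of 27025 promoters of the same length, and a CCAAT box in 24 (63.2%), against 37.9%. Both were present in 24 (63.2%), against 11.5%. Within the 50 bases on either side of the start, a window chosen after the first counts were seen, a CHR was present in 28 of 38 (73.7%), against 8.599% of all promoters, and in the 100 bases before the start alone in 13 (34.2%), against 10.3%. An E2F site (TTTCCCGC, or in its other common form TTTGGCGC) was present in 5 of 38 (13.2%), against 1.63%, and a GC box (GGGCGG) in 26 (68.4%), against 35.9%. The member promoters are richer in G and C, with a median of 59.7% against 52.7% of all, and matches were counted separately where motifs share letters. Genes with a CHR in this window and genes without one both had falls in cumulus cells. The median log2 fold change was −0.91 over 31 genes with a CHR and −1.07 over 6 without, and a match is a run of letters and not a shown binding site.

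Kinesin motors move along or take apart microtubules. Of 11 tested in cumulus cells 4 were called lower and 8 had an adjusted p of 0.05 or less, with a median log2 fold change of −0.96. Kif20b, a plus-end motor that works in late cytokinesis, had the largest fall of a motor on the log2(FPKM + 1) scale, while in FPKM the mean of Kif14 was a smaller share of WT. Kif20b was at 32.4, 40.8 and 25.8 FPKM in WT libraries 1 to 3 and at 15.4, 9.58 and 5.85 FPKM in those labelled Sphk1/2gc-/- (log2 fold change −1.66, SE 0.312, limma adjusted p = 0.009003). Kif11, the motor that pushes spindle poles apart, had 26.2, 25.98 and 27.7 FPKM in WT cumulus cells against 18.2, 9.57 and 9.23 FPKM under the Sphk1/2gc-/- label (log2 fold change −1.11, SE 0.244, limma adjusted p = 0.0155). Both genes were lower in every library labelled Sphk1/2gc-/- than in any WT library. Kif22, a chromokinesin that pushes chromosome arms, was at 10.6, 13.4 and 10.8 FPKM in WT libraries 1 to 3 and at 10.1, 4.12 and 3.35 FPKM in those labelled Sphk1/2gc-/- (log2 fold change −0.996, SE 0.326, limma adjusted p = 0.0603). In WT cumulus libraries Kif18b, a plus-end motor that works with a microtubule depolymerase, was at 1.17, 0.966 and 1.18 FPKM, and in the Sphk1/2gc-/- set 0.699, 0.524 and 0.628 FPKM (log2 fold change −0.38, SE 0.132, limma adjusted p = 0.0721). For Kif22 replicate 1 lay just under the lowest WT library, and for Kif18b the values were near 1 FPKM, where the scale of FPKM + 1 understates a change. The same holds for Kif14, a motor of the central spindle, whose mean was 24.5% of the WT mean (range of its values 0.156 to 0.297 FPKM against 0.7201 to 0.977 FPKM) at a log2 fold change of −0.62. Kif14, counted among the 8 above, passed the filter through the WT libraries alone, so a lower value was built in. Kif15, a motor that backs up Kif11, and Kif4, a chromokinesin, were called lower at −1.37 and −1.18. Kif18a, which steadies chromosomes at the spindle equator, Kif23, a motor of the central spindle, and Kif2c, a microtubule depolymerase, fell to means of 42.4%, 38.7% and 49.4% of WT in FPKM, which is under 2-fold on the log2(FPKM + 1) scale, and Kif20a, a motor of the cleavage furrow, missed the threshold at −0.79 (limma adjusted p = 0.11). Kifc1, a minus-end motor, was at 0.199 to 0.620 FPKM in all 6 cumulus libraries and was not tested there. Its longest match to Kifc5b covers 1233 bases at 98.95% identity, so reads could be split between these 2 genes.

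Spindle assembly factors nucleate, bundle and anchor microtubules, and of 8 tested 4 were called lower and 5 had an adjusted p of 0.05 or less (median log2 fold change −1.02). Hmmr, which binds hyaluronan at the cell surface and microtubules in the cell, was at 24.2, 24.3 and 17.7 FPKM in WT libraries 1 to 3 and at 10.7, 5.05 and 4.28 FPKM in those labelled Sphk1/2gc-/- (log2 fold change −1.66, SE 0.297, limma adjusted p = 0.00741). Nusap1, a microtubule bundling protein, had 49.99, 47.8 and 40.9 FPKM in WT cumulus cells against 28.2, 11.3 and 11.7 FPKM under the Sphk1/2gc-/- label (log2 fold change −1.50, SE 0.318, limma adjusted p = 0.0135). Tpx2, the activator of Aurora A on the spindle, was at 27.7, 30.1 and 23.1 FPKM in WT libraries 1 to 3 and at 16.1, 9.82 and 8.14 FPKM in those labelled Sphk1/2gc-/- (log2 fold change −1.22, SE 0.241, limma adjusted p = 0.0107). All 3 separated the groups fully, with replicates 2 and 3 labelled Sphk1/2gc-/- at the bottom. In WT cumulus libraries Ckap2, a spindle-associated protein, was at 24.9, 26.9 and 25.1 FPKM, and in the Sphk1/2gc-/- set 23.4, 12.8 and 11.1 FPKM (log2 fold change −0.73, SE 0.253, limma adjusted p = 0.0705). Fam83d, an anchor of a kinase on the spindle, had 15.7, 20.4 and 23.6 FPKM in WT cumulus cells against 15.96, 9.19 and 11.8 FPKM under the Sphk1/2gc-/- label (log2 fold change −0.66, SE 0.227, limma adjusted p = 0.0691). In both of these genes replicate 1 was close to the WT libraries, and for Fam83d it lay inside their range. Aspm, which focuses spindle poles, was called lower at −1.04, Ckap5, a microtubule polymerase, fell by 0.83 on the log2 scale without reaching 2-fold, and Tacc3, its partner on the spindle, was at −1.01 with an adjusted p of 0.0543 in limma.

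Among the mitotic kinases 0 of 3 were called by limma, 1 (Plk4) passed on its adjusted p alone and 2 had an unadjusted p under 0.05. By that unadjusted limit 21.9% of all genes tested were lower. Plk4, which starts the doubling of centrioles, was at 28.9, 24.2 and 26.1 FPKM in WT libraries 1 to 3 and at 19.3, 11.4 and 11.7 FPKM in those labelled Sphk1/2gc-/- (log2 fold change −0.89, SE 0.213, limma adjusted p = 0.0213). Aurka, the kinase of spindle poles, had 92.4, 119.7 and 101 FPKM in WT cumulus cells against 92.3, 46.4 and 38.1 FPKM under the Sphk1/2gc-/- label (log2 fold change −0.91, SE 0.304, limma adjusted p = 0.0645). Plk1, the Polo kinase of mitotic entry and exit, was at 1.44, 2.18 and 3.004 FPKM in WT libraries 1 to 3 and at 2.25, 1.31 and 0.996 FPKM in those labelled Sphk1/2gc-/- (log2 fold change −0.35, SE 0.2397, limma adjusted p = 0.321). Plk4 separated the groups. Aurka did so by a narrow margin, with replicate 1 labelled Sphk1/2gc-/- at 92.3 FPKM beside a WT library at 92.4 FPKM. Plk1 had the smallest fold change of the 40 genes tested, with replicate 1 inside the WT range.

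Cytokinesis factors showed 0 of 5 called by limma and 1 at an adjusted p of 0.05 or less, with a median log2 fold change of −0.86. At an unadjusted p of 0.05 or less there were 5, where 21.9% of all genes tested were lower by that limit. Anln, a scaffold of the contractile ring, was at 9.72, 7.72 and 8.09 FPKM in WT libraries 1 to 3 and at 4.997, 3.18 and 3.41 FPKM in those labelled Sphk1/2gc-/- (log2 fold change −0.98, SE 0.183, limma adjusted p = 0.00874). Cep55, which brings the abscission machinery to the midbody, had 33.9, 35.1 and 37.7 FPKM in WT cumulus cells against 31.9, 16.6 and 21.5 FPKM under the Sphk1/2gc-/- label (log2 fold change −0.64, SE 0.227, limma adjusted p = 0.0778). Racgap1, a subunit of the central spindle complex, was at 12.6, 17.1 and 16.1 FPKM in WT libraries 1 to 3 and at 13.3, 5.697 and 6.08 FPKM in those labelled Sphk1/2gc-/- (log2 fold change −0.88, SE 0.2902, limma adjusted p = 0.0621). Anln was lower in each library labelled Sphk1/2gc-/-, whereas replicate 1 reached the WT range for Racgap1. In WT cumulus libraries Prc1, which cross-links central spindle microtubules, was at 8.28, 8.98 and 9.200 FPKM, and in the Sphk1/2gc-/- set 7.597, 3.94 and 3.36 FPKM (log2 fold change −0.78, SE 0.248, limma adjusted p = 0.0543). Ect2, the exchange factor that Racgap1 recruits, was at −0.86 (limma adjusted p = 0.0614), with no overlap of the groups.

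Condensin and topoisomerase genes held the largest share of calls, with 6 of 9 called lower, 8 at an adjusted p of 0.05 or less and a median log2 fold change of −1.14. Smc4, an ATPase core subunit of both condensins, was at 155, 135 and 115 FPKM in WT libraries 1 to 3 and at 73.6, 46.8 and 45.2 FPKM in those labelled Sphk1/2gc-/- (log2 fold change −1.30, SE 0.219, limma adjusted p = 0.00602). Smc2, its partner in the core, had 73.6, 77.3 and 63.9 FPKM in WT cumulus cells against 32.2, 20.8 and 16.9 FPKM under the Sphk1/2gc-/- label (log2 fold change −1.62, SE 0.232, limma adjusted p = 0.003498). Top2a, the topoisomerase that untangles sister chromatids, was at 33.6, 37.7 and 33.8 FPKM in WT libraries 1 to 3 and at 18.7, 10.5 and 10.6 FPKM in those labelled Sphk1/2gc-/- (log2 fold change −1.38, SE 0.224, limma adjusted p = 0.00537). For all 3 genes the highest library labelled Sphk1/2gc-/- was replicate 1, well under every WT library. In WT cumulus libraries Ncaph2, the kleisin of condensin II, was at 9.07, 14.4 and 15.3 FPKM, and in the Sphk1/2gc-/- set 8.27, 5.497 and 7.68 FPKM (log2 fold change −0.76, SE 0.229, limma adjusted p = 0.0468). Subunits of condensin I alone were at −1.37 for Ncapg, −0.90 for Ncapd2 and −0.78 for Ncaph, of which the last did not pass the test. The other subunits of condensin II, Ncapd3 and Ncapg2, were called lower at −1.14 and −1.13. Exons of Ncaph2 overlap those of Sco2 over 19.8% and of Tymp over 12.7% of the exon length of Ncaph2, on the other strand, and exons of Ncapg overlap those of Lcorl in the same way over 13.4%. As the kit does not mark strand, reads in such overlaps cannot be assigned, which also holds for Kif20a with Cdc23 (29.3%), Kif4 with Pdzd11 (15.1%), Prc1 with Rccd1 (11.1%), Tacc3 with Tmem129 (8.14%), Plk1 with Gm44985 (7.09%), Nusap1 with Oip5 (4.24%) and Cdc20 with Elovl1 (2.84%).

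Anaphase regulators included the gene with the largest fall on the log2(FPKM + 1) scale, Cdca3, an F-box protein that turns over an inhibitor of mitotic entry. Cdca3 was at 82.2, 98.2 and 84.7 FPKM in WT libraries 1 to 3 and at 32.3, 22.8 and 18.2 FPKM in those labelled Sphk1/2gc-/- (log2 fold change −1.84, SE 0.214, limma adjusted p = 0.00164). Its mean under the Sphk1/2gc-/- label was 27.7% of the WT mean, and its fold change ranked 47 of 12205 genes from the lowest. Pttg1, the securin that holds separase inactive, had 19.9, 17.05 and 15.2 FPKM in WT cumulus cells against 7.22, 7.995 and 6.73 FPKM under the Sphk1/2gc-/- label (log2 fold change −1.14, SE 0.156, limma adjusted p = 0.00301). Cdc20, an activator of the anaphase-promoting complex, was at 58.2, 80.7 and 86.5 FPKM in WT libraries 1 to 3 and at 64.9, 32.9 and 39.3 FPKM in those labelled Sphk1/2gc-/- (log2 fold change −0.74, SE 0.268, limma adjusted p = 0.0792). The groups of Pttg1 were far apart, while replicate 1 of Cdc20 lay inside the WT range. In WT cumulus libraries Espl1, the separase, was at 0.731, 0.755 and 0.885 FPKM, and in the Sphk1/2gc-/- set 0.352, 0.336 and 0.417 FPKM (log2 fold change −0.39, SE 0.126, limma adjusted p = 0.0602). Espl1 stood under 1 FPKM in all 6 cumulus libraries and its groups did not overlap. It passed the filter through the WT libraries alone, so a lower value was built in and its separation is no added result.

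**Figure D2:**
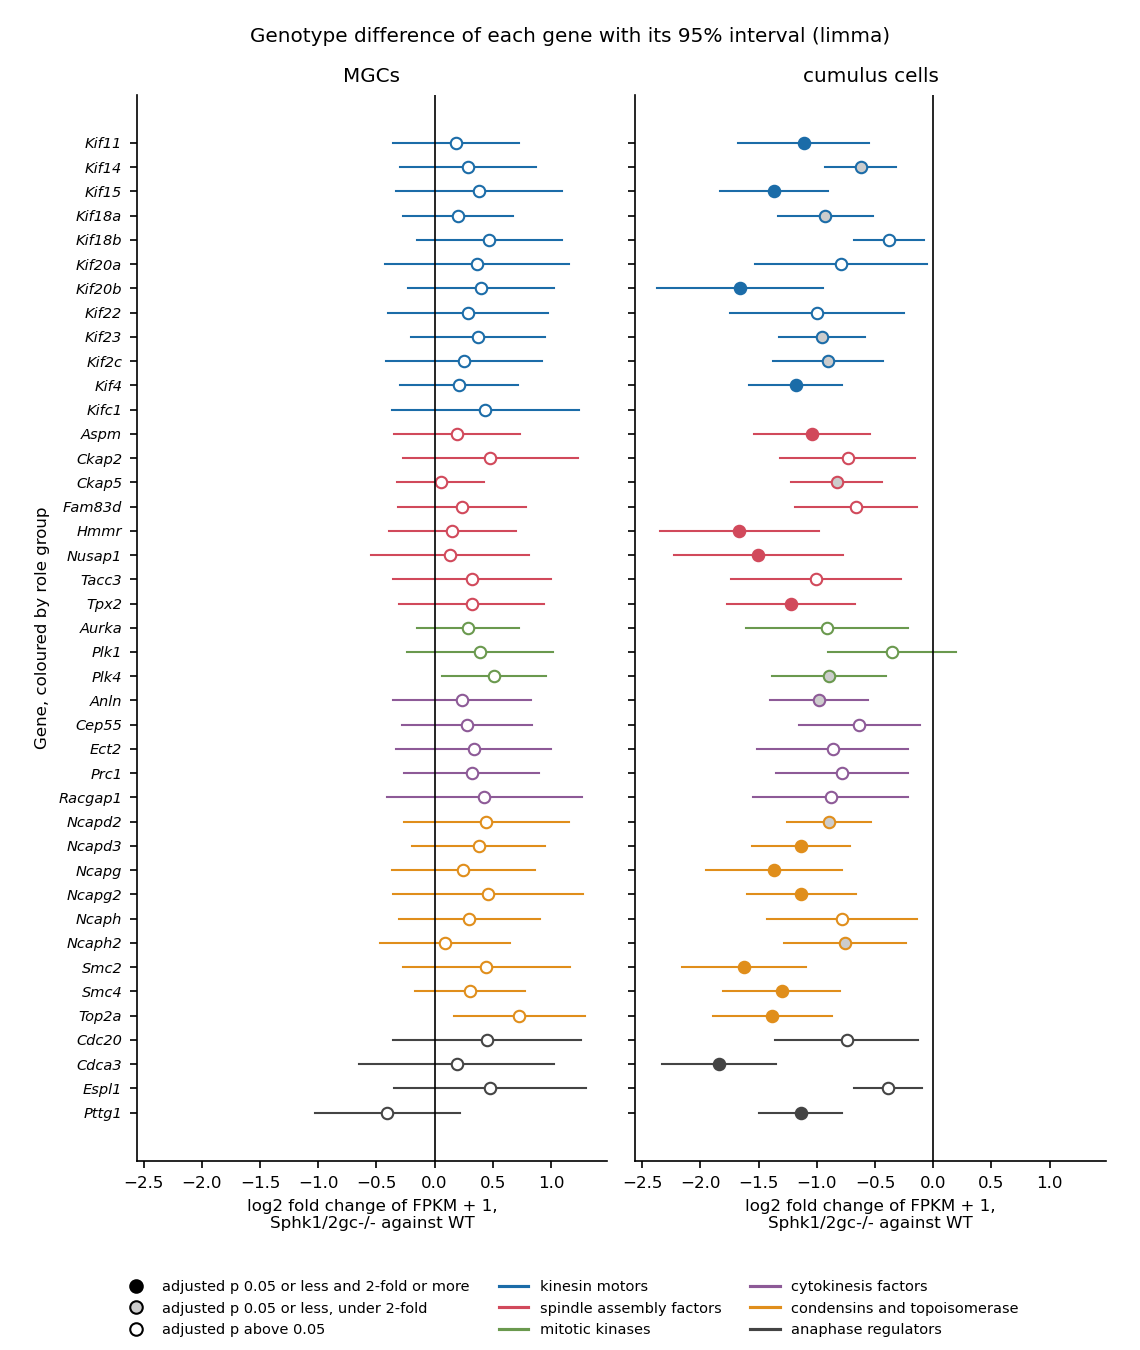
Log2 fold change of FPKM + 1, Sphk1/2gc-/- against WT, for each gene (rows, coloured by role group) in MGCs and cumulus cells, with the limma 95% interval as a bar. Filled points passed both limits, grey points the adjusted p alone and open points neither, and in cumulus cells all 40 points lie below 0 and 16 are filled, while in MGCs all are open and 40 of 41 lie above 0.

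In replicate 1 of the cumulus libraries labelled Sphk1/2gc-/- the medians of the role groups differed while their ranges overlapped. This is a description over genes that share this library, with no test. Measured as a percent of the mean of the 3 WT libraries, the 41 genes had a median of 59.9% in replicate 1 (range 30.9% to 117%), 37.3% in replicate 2 (21.3% to 59.6%) and 34.7% in replicate 3 (17.7% to 60.3%). Replicates 2 and 3 were thus low for every role group, with medians between 30.6% and 45.5%. In replicate 1 the 5 cytokinesis factors had a median of 86.9% and the 3 mitotic kinases 88.5%, whereas the 9 condensin and topoisomerase genes had a median of 53.3% and the 4 anaphase regulators 43.1%. Of the condensin and topoisomerase group 8 of 9 were under 75% of WT in that library, against 27 of all 41 genes and 1 of 5 cytokinesis factors, Anln at 58.7%. Among single genes, Aspm (30.9%), Kif14 (34.2%), Cdca3 (36.6%) and Pttg1 (41.6%) were lowest in replicate 1, and Kifc1 (117%), Plk1 (102%) and Kif20a (99.0%) highest. The lowest value of each gene over the 6 cumulus libraries was in replicate 3 for 27 genes and in replicate 2 for 14, and the highest was in WT replicate 1 for 14, WT replicate 2 for 15 and WT replicate 3 for 12.

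**Figure D3:**
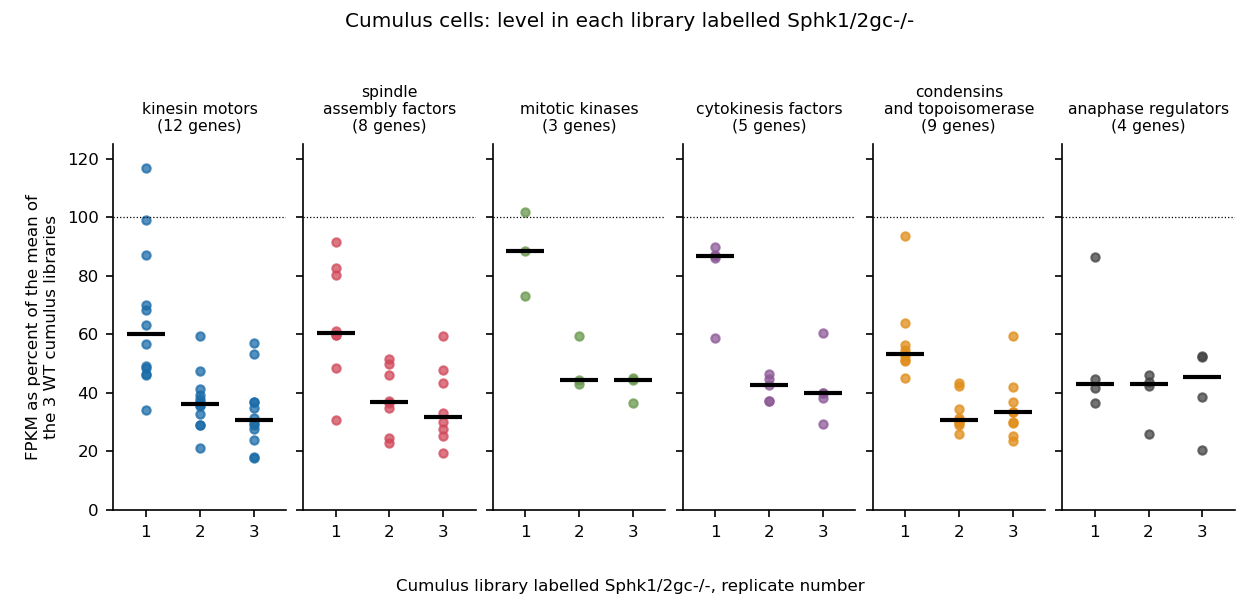
FPKM of each gene (points) in the 3 cumulus libraries labelled Sphk1/2gc-/-, as a percent of the mean of the 3 WT cumulus libraries, in 6 panels by role group with the median as a black dash and 100% dotted. In library 1 the median is 86.9% for cytokinesis factors and 53.3% for condensins and topoisomerase, with overlapping points. In libraries 2 and 3 the median is 45.5% or less in each panel.

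In MGCs no gene of the list passed the test. Of 41 tested with limma 0 were called in either direction, where 0.0327% of 15279 genes were called lower and 0.00654% higher, and 40 of 41 had a log2 fold change above 0, with a median of 0.32 against −0.00340 over all genes. At an unadjusted p of 0.05 or less there were 2, Top2a and Plk4, both higher, where 3.31% of all genes were higher in this way. Groups did not overlap for 3 genes, Kif20b, Plk4 and Top2a, all higher in Sphk1/2gc-/-, where 7.72% of all genes were higher and 9.17% lower without overlap. Neither the 2 nor the 3 of 41 is set apart from the share of all genes. 1 library stood out. Replicate 3 of Sphk1/2gc-/- held the highest value of all 41 genes, 1.25 to 2.58 times the mean of the other 5 libraries, and WT replicate 3 was the highest of the 3 WT libraries for 40 of 41. That Sphk1/2gc-/- library also differed in other genes. Its cumulus response genes summed to 719 FPKM against 3826 to 6069 FPKM in the other 5 MGC libraries, its erythroid markers to 30.6 FPKM against 230 to 404 FPKM and its leukocyte markers to 24.9 FPKM against 92.5 to 313 FPKM, and the part of this in the result was not tested. Without it the median of the 41 genes was 0.05, with 30 above 0 and 11 below, and 0 had an adjusted p of 0.05 or less, where 1.1% of all genes tested were higher and 0.73% lower. Without replicate 3 of both genotypes the median was 0.19, and 4 genes had an adjusted p of 0.05 or less, Top2a at 0.85 (SE 0.0579, limma adjusted p = 0.00519), Plk4 at 0.51 (0.0316), Kif18b at 0.41 (0.0388) and Smc2 at 0.40 (0.0283), all higher and by less than 2-fold, where 5.07% of all genes tested were higher by that limit.

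Among motors in MGCs, Kif20b was high in replicate 3 and nearly level elsewhere. Kif20b gave 3.28, 3.32 and 3.495 FPKM across the WT MGC libraries and 3.58, 3.78 and 7.73 FPKM across the Sphk1/2gc-/- ones (log2 fold change 0.40, SE 0.265, limma adjusted p = 0.702). Kif11 had 13.02, 13.7 and 18.5 FPKM in WT MGCs and 15.2, 14.03 and 23.4 FPKM in Sphk1/2gc-/- MGCs (log2 fold change 0.19, SE 0.228, limma adjusted p = 0.8502). Kif18b gave 4.35, 4.22 and 6.74 FPKM across the WT MGC libraries and 5.896, 6.18 and 10.6 FPKM across the Sphk1/2gc-/- ones (log2 fold change 0.47, SE 0.263, limma adjusted p = 0.643). Kif18b was higher in all 3 Sphk1/2gc-/- libraries than in WT replicates 1 and 2, and in 2 of them it was below WT replicate 3. Kif22 had 5.21, 6.71 and 7.85 FPKM in WT MGCs and 5.97, 6.900 and 13.03 FPKM in Sphk1/2gc-/- MGCs (log2 fold change 0.29, SE 0.289, limma adjusted p = 0.808). Its groups overlapped. Hmmr, of the spindle factors, had 3.01, 2.68 and 4.51 FPKM in WT MGCs and 3.07, 3.54 and 5.04 FPKM in Sphk1/2gc-/- MGCs (log2 fold change 0.15, SE 0.2301, limma adjusted p = 0.888). Nusap1 gave 4.88, 5.42 and 5.89 FPKM across the WT MGC libraries and 4.53, 4.58 and 10.1 FPKM across the Sphk1/2gc-/- ones (log2 fold change 0.13, SE 0.287, limma adjusted p = 0.931). Tpx2 had 9.995, 10.3 and 14.4 FPKM in WT MGCs and 11.8, 11.9 and 21.5 FPKM in Sphk1/2gc-/- MGCs (log2 fold change 0.32, SE 0.262, limma adjusted p = 0.755). All 3 had replicate 3 on top in both genotypes, as had Ckap2 and Fam83d. Ckap2 gave 4.53, 4.58 and 7.397 FPKM across the WT MGC libraries and 5.36, 7.03 and 12.7 FPKM across the Sphk1/2gc-/- ones (log2 fold change 0.48, SE 0.317, limma adjusted p = 0.702). Fam83d had 7.28, 6.05 and 7.36 FPKM in WT MGCs and 6.76, 6.82 and 12.1 FPKM in Sphk1/2gc-/- MGCs (log2 fold change 0.24, SE 0.233, limma adjusted p = 0.804).

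Among the kinases in MGCs only Plk4 had groups that did not overlap, and it was not called. Plk4 gave 5.47, 5.103 and 7.22 FPKM across the WT MGC libraries and 7.51, 8.42 and 10.7 FPKM across the Sphk1/2gc-/- ones (log2 fold change 0.51, SE 0.188, limma adjusted p = 0.488). Aurka had 10.1, 10.4 and 12.2 FPKM in WT MGCs and 10.98, 13.02 and 17.2 FPKM in Sphk1/2gc-/- MGCs (log2 fold change 0.29, SE 0.184, limma adjusted p = 0.687). Plk1 gave 9.595, 10.2 and 14.1 FPKM across the WT MGC libraries and 12.2, 12.2 and 22.2 FPKM across the Sphk1/2gc-/- ones (log2 fold change 0.39, SE 0.264, limma adjusted p = 0.706). The lowest Sphk1/2gc-/- value of Plk4 exceeded the highest WT value by a small margin, and the groups of Aurka and Plk1 overlapped. Cytokinesis factors varied together. Anln had 5.098, 4.69 and 7.51 FPKM in WT MGCs and 5.55, 5.896 and 9.65 FPKM in Sphk1/2gc-/- MGCs (log2 fold change 0.23, SE 0.2504, limma adjusted p = 0.823). Cep55 gave 8.86, 9.33 and 12.4 FPKM across the WT MGC libraries and 10, 10.9 and 17.6 FPKM across the Sphk1/2gc-/- ones (log2 fold change 0.28, SE 0.236, limma adjusted p = 0.7603). Racgap1 had 6.77, 7.16 and 9.58 FPKM in WT MGCs and 7.58, 8.11 and 19.9 FPKM in Sphk1/2gc-/- MGCs (log2 fold change 0.43, SE 0.353, limma adjusted p = 0.757). In each of them the 2 highest libraries were the replicates numbered 3. Prc1 gave 5.25, 5.25 and 7.95 FPKM across the WT MGC libraries and 6.53, 6.55 and 10.9 FPKM across the Sphk1/2gc-/- ones (log2 fold change 0.32, SE 0.245, limma adjusted p = 0.746). Prc1 followed the same order.

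Top2a had the largest difference of the 41 genes in MGCs, and it was not called. Top2a gave 22.8, 22.6 and 38.7 FPKM across the WT MGC libraries and 42.6, 40.6 and 54.9 FPKM across the Sphk1/2gc-/- ones (log2 fold change 0.73, SE 0.238, limma adjusted p = 0.434). All 3 Sphk1/2gc-/- libraries were above every WT library. Smc4 had 24.9, 24.9 and 27.6 FPKM in WT MGCs and 27.4, 27.5 and 43.6 FPKM in Sphk1/2gc-/- MGCs (log2 fold change 0.30, SE 0.198, limma adjusted p = 0.696). Smc2 gave 10.01, 9.58 and 16.6 FPKM across the WT MGC libraries and 13.4, 13 and 24.6 FPKM across the Sphk1/2gc-/- ones (log2 fold change 0.44, SE 0.301, limma adjusted p = 0.707). Ncaph2 had 14.96, 17.1 and 16.5 FPKM in WT MGCs and 13.3, 15.2 and 25.3 FPKM in Sphk1/2gc-/- MGCs (log2 fold change 0.09, SE 0.236, limma adjusted p = 0.945). These 3 genes overlapped between groups. Pttg1 was the only gene below 0 in MGCs. Pttg1 gave 6.37, 5.900 and 6.58 FPKM across the WT MGC libraries and 2.86, 4.43 and 6.92 FPKM across the Sphk1/2gc-/- ones (log2 fold change −0.41, SE 0.263, limma adjusted p = 0.695). Its replicate 1 and 2 values in Sphk1/2gc-/- were under all WT values, and replicate 3 was above them. Cdc20 had 19.8, 19.6 and 26.5 FPKM in WT MGCs and 22.8, 22.2 and 53.3 FPKM in Sphk1/2gc-/- MGCs (log2 fold change 0.45, SE 0.3404, limma adjusted p = 0.7399). Espl1 gave 4.32, 4.63 and 6.26 FPKM across the WT MGC libraries and 4.78, 6.03 and 13.4 FPKM across the Sphk1/2gc-/- ones (log2 fold change 0.48, SE 0.347, limma adjusted p = 0.732). Cdca3 had 7.299, 6.59 and 11.1 FPKM in WT MGCs and 6.48, 7.52 and 16.7 FPKM in Sphk1/2gc-/- MGCs (log2 fold change 0.19, SE 0.354, limma adjusted p = 0.916). Cdca3 gave overlapping values in MGCs.

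The genotype difference itself was compared between cell types in a model of all 12 libraries. All 41 genes had a more negative difference in cumulus cells, with a median of −1.23 on the log2 scale against −0.03 over 15869 genes, and 14 had an adjusted p of 0.05 or less, where 1.48% of all genes tested were lower in this way. The largest were Top2a at −2.11 (SE 0.347, limma adjusted p = 0.0126), Smc2 at −2.07 (SE 0.404), Kif20b at −2.06 (SE 0.443) and Cdca3 at −2.03 (SE 0.436). By role these were 5 of 12 motors (Kif15, Kif18a, Kif20b, Kif23 and Kif4), 2 of 8 spindle factors (Hmmr and Tpx2), 1 of 3 kinases (Plk4), 0 of 5 cytokinesis factors, 5 of 9 condensin and topoisomerase genes (Smc2, Smc4, Ncapd3, Ncapg and Top2a) and 1 of 4 anaphase regulators (Cdca3). With the replicate number as a block 21 passed, where 2.4% of all genes were lower in this way. They were the 14 and Kif11, Aspm, Ckap5, Nusap1, Anln, Ncapd2 and Ncapg2, which makes 6 motors, 5 spindle factors, 1 kinase, 1 cytokinesis factor, 7 condensin and topoisomerase genes and 1 anaphase regulator. The count changed with single libraries. It fell to 1 (Top2a) without WT MGC replicate 1 or 2, WT cumulus replicate 1 or 2, or cumulus replicate 2 or 3 labelled Sphk1/2gc-/-. It rose to 30 without cumulus replicate 1 labelled Sphk1/2gc-/-. Without replicate 3 of Sphk1/2gc-/- MGCs it was 15, of which 13 were among the 14. Without a filter on low values it was 6. The size of the differences changed less. With any 1 library left out it was −2.37 to −1.98 for Top2a, −2.32 to −1.79 for Smc2, −2.37 to −1.75 for Kif20b and −2.27 to −1.65 for Cdca3. Shares of all genes passing in the fits with 1 library left out are not given here, so those counts have no reference.

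Genes that work beside these 41 were followed in lists drawn up by function. Over all genes tested in cumulus cells 3.85% were called lower. Of 19 genes of the kinetochore and the chromosomal passenger complex 15 were called lower there (median log2 fold change −1.26). Its most abundant genes were Birc5, a passenger subunit, at −1.50 (limma adjusted p = 0.00253) and Zwint, a kinetochore subunit, at 0.16 (0.425). Of 14 genes of mitotic entry and its ubiquitin machinery 9 were called lower (median −1.09), with Ube2c at −1.23 and Cks1b at −1.09. The centrosome and gamma-tubulin list had 3 of 22 called lower (median −0.63), with Haus1 at −1.43 and Haus3 at −0.99. Cohesin and its regulators, which hold sister chromatids together, had 1 of 15 called lower (median −0.42), with Rad21 at −0.91 and Wapl at −0.06. This 1 call is too few to be set apart from the 3.85% of all genes. In 3 other lists 0 genes were called, and their counts at an unadjusted p of 0.05 or less can be read against 21.9% of all genes lower and 16.3% higher by that limit. Transport kinesins and light chains, which carry cargo in resting cells, had 0 of 11 called by limma (1 lower and 4 higher at an unadjusted p, median 0.21), with Kif5b at −0.09, and Klc1 at 0.67 (limma adjusted p = 0.0364). The actomyosin ring and abscission list had 0 of 18 called (4 lower and 4 higher at an unadjusted p, median 0.02), with Chmp2a at −0.32 and Tsg101 at −0.36, and 16 regulators of G2/M transcription had 0 called (6 lower and 2 higher at an unadjusted p, median −0.25), with Tfdp1 at 0.17 and E2f5 at −0.20. In MGCs limma called 0 genes of these 7 lists. At an unadjusted p of 0.05 or less there were 4, all higher, 1 of 15 cohesin genes and 3 of 16 regulators of G2/M transcription. Over all genes tested in MGCs 3.31% were higher by that limit.

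**Figure D4:**
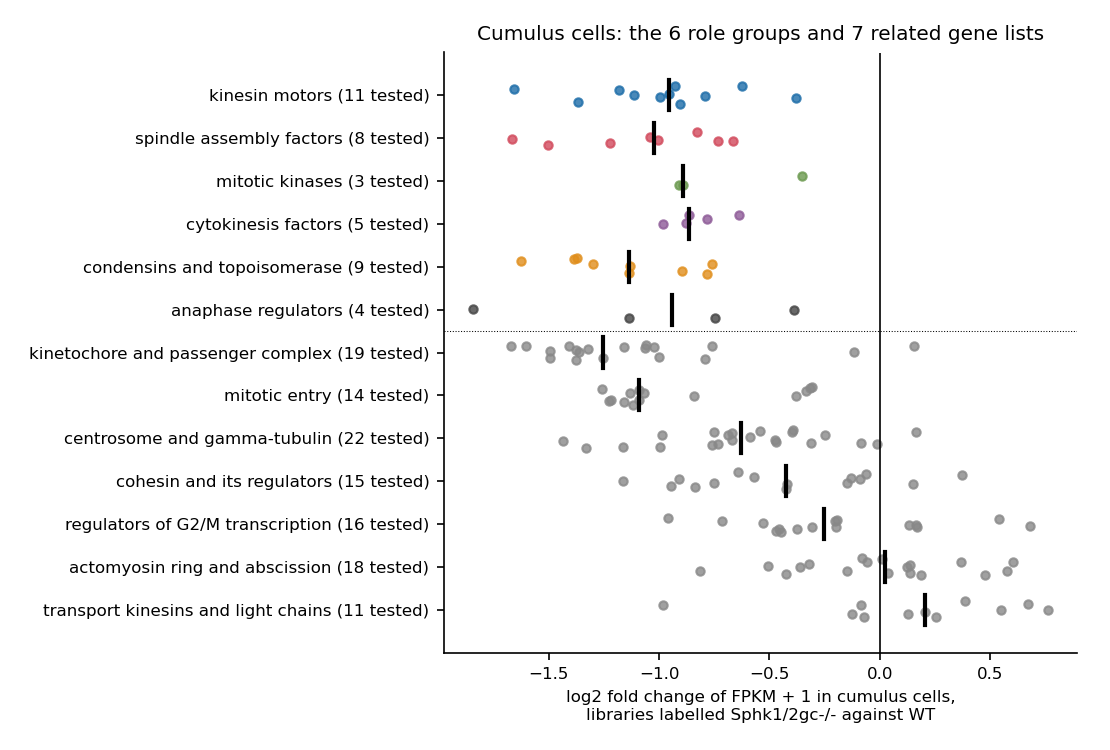
Log2 fold change of FPKM + 1 in cumulus cells, libraries labelled Sphk1/2gc-/- against WT, for each gene tested (points, spread vertically at random for visibility) in the 6 role groups and in 7 related lists, with medians as black bars. Medians run from −1.26 for the kinetochore and passenger list to 0.21 for transport kinesins, and the 6 role groups lie between −1.14 and −0.86.

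In WT cells these genes were spread over a wide range. Mean levels ran from 0.877 FPKM (Kif18a) to 28.0 FPKM (Top2a) in MGCs, with a median of 6.21 FPKM, and from 0.374 FPKM (Kifc1) to 135 FPKM (Smc4) in cumulus cells, with a median of 12.9 FPKM. The WT cumulus mean was above the WT MGC mean for 33 of 41 genes, by a median ratio of 1.76, and was more than 2 times as high for 18. Cdca3 had the highest ratio, 10.6, followed by Kif20b at 9.81, Aurka at 9.57 and Nusap1 at 8.57. Kifc1 (0.0428), Espl1 (0.156), Ncapd2 (0.190), Plk1 (0.196) and Kif18b (0.216) were lower in cumulus cells. The tables may have been scaled apart, so these ratios carry no test. The shares of all genes with ratios above 1 or 2 are not given here, so the 33 and the 18 have no reference. They are no result about these genes. Base composition moved with these ratios, and its part was not tested. Of the 7 genes whose longest transcript is above 54% GC, a limit set after the data were seen, 6 were lower in WT cumulus cells. Cdc20 was the exception, and 2 of the other 34 were lower. Over all genes the median WT difference on the log2 scale was 0.12 in the lowest of 5 equal bins of GC content and −1.20 in the highest. The 6 of 7 is therefore no trait of these genes alone. Over the 41 genes GC content and the WT difference on the log2 scale had a Spearman rho of −0.49, across genes that share these libraries. Over 15849 genes it was −0.35. In the cumulus comparison the 12 genes in the lowest-GC bin (below 43.3%, of 5 equal bins of all genes) had a median log2 fold change of −1.34 with 8 called, and the 5 genes in the highest-GC bin (above 54.9%) had a median of −0.39 with 0 called. In FPKM the medians of these bins were 38.9% and 55.9% of the WT mean, and of the 5 genes Espl1 and Kif18b had WT means under 2 FPKM, where the scale of FPKM + 1 understates a change. Over all genes tested these bins had medians of −0.11 and 0.01, with 4.16% and 2.95% called lower, so 0 of 5 called is no departure. In the bins between, the listed genes had medians of −0.96, −0.95 and −0.96, with 5 of 13, 2 of 6 and 1 of 4 called. Of all genes 3.40% to 4.58% were called lower in those bins.

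**Figure D5:**
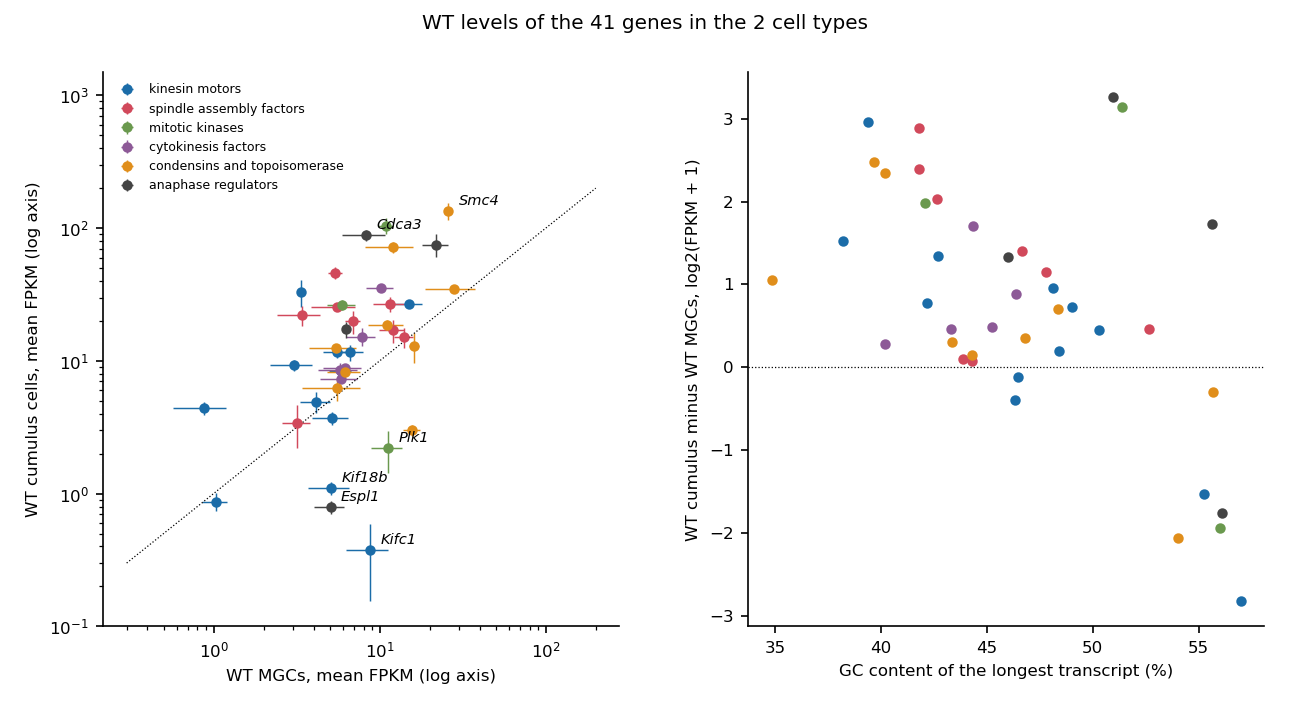
The left panel plots mean FPKM of the 41 genes in WT MGCs and WT cumulus cells on log axes, with bars for the SD of 3 libraries and a dotted line of equal level. The right panel plots log2(mean WT FPKM + 1) in cumulus cells minus that in MGCs against the GC content of the longest transcript. Most points lie above equality, and the 5 far below it, among them Kifc1, Espl1 and Plk1, have GC content above 54%.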

How the data were processed

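RNA libraries from MGCs and cumulus cells were made by the authors with a kit that does not mark strand, and the submitters' processing notes name HISAT2 and GRCm38; the counting tool is not given in the sources used here. The authors deposited FPKM values in 1 table for each cell type, and 0 columns were left unused. Multiplied by GENCODE M21 exon lengths, 90.6% to 92.1% of values above 0 were whole reads within 0.02. An exact test of 3 against 3 libraries cannot give a p below 0.1.

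Genotypes were compared within each table with limma 3.58.1 (R 4.3.3, intensity trend) on log2(FPKM + 1), keeping genes whose mean reached 0.5 FPKM in WT or Sphk1/2gc-/-, with Benjamini-Hochberg adjustment over all genes tested, and between cell types by an interaction over all 12 libraries. Changes of low genes are understated by that scale. The steps were tested on simulated data. The changes planted there were larger than most found here and the spread was capped, so smaller effects were not covered. The members, lists and tests were chosen with earlier results of these data known. Values in every library are given, in each role group, for the 3 genes with the highest mean over WT libraries and those with the largest and smallest fold change in cumulus cells, and of other lists the 2 most abundant genes are named. GC content and the window around the start were examined after the data were seen.

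After removal of genotype means, libraries of the same number correlated at 0.220, 0.158 and 0.224 in MGCs, all over 0.1, and at −0.148, −0.0511 and 0.115 in cumulus cells. Libraries of different number correlated at −0.232 to 0.155 in MGCs and at −0.191 to 0.179 in cumulus cells. The 0.155, between WT replicate 1 and Sphk1/2gc-/- replicate 2, is also over 0.1. The labels name no shared animal and these values do not settle pairing by number in MGCs. The number was tried as a block. Other alternatives were the pseudocount, the filter, rescaling, the variance trend and leaving out each library.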

Additional observations from a re-analysis of the deposited data

Results flagged for a closer look

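The genotype difference of 14 genes differed between cumulus cells and MGCs in the interaction test (limma, adjusted p of 0.05 or less over 15869 genes). Given as the cumulus log2 fold change less the MGC one, they were Top2a (−2.11), Smc2 (−2.07), Kif20b (−2.06), Cdca3 (−2.03), Hmmr (−1.82), Kif15 (−1.75), Ncapg (−1.62), Smc4 (−1.60), Tpx2 (−1.54), Ncapd3 (−1.51), Plk4 (−1.40), Kif4 (−1.39), Kif23 (−1.33) and Kif18a (−1.13). Of these 14 only Top2a passed without each of 6 single libraries, WT MGC replicates 1 and 2, WT cumulus replicates 1 and 2, and cumulus replicates 2 and 3 labelled Sphk1/2gc-/-. The share of all genes passing in those fits is not given here.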

How the results depend on the processing

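The count of 16 genes called lower in cumulus cells was 13 to 22 under the pseudocount of 0.1, both filters, both rescalings, the fit without an intensity trend and the replicate block, and 25 without the limit on the fold change. Leaving out 1 library at a time gave 12 to 32, the highest without replicate 1 labelled Sphk1/2gc-/-, and the share of all genes called in those fits is not given here. In MGCs 0 genes were called under each of these alternatives, but the sign of small values depended on the libraries, and with 1 library left out the log2 fold changes of the genes that changed sign ran as follows, Kif11 −0.029 to 0.33, Kif20a −0.00099 to 0.63, Kif22 −0.017 to 0.49, Kif2c −0.058 to 0.44, Nusap1 −0.20 to 0.30, Ckap5 −0.061 to 0.15, Hmmr −0.010 to 0.33, Fam83d −0.015 to 0.36, Ncaph2 −0.18 to 0.27 and Cdca3 −0.19 to 0.43. Without replicate 3 of both genotypes Nusap1 was at −0.14 and Ncaph2 at −0.16 in MGCs. The 14 differences between cell types became 6 without a filter on low values, 20 and 19 with equal medians and upper quartiles, 23 without replicate 3 of both MGC genotypes (chosen after the data were seen) and 1 to 30 with 1 library left out, and the cause was not tested. With 1 library left out, the share of all genes that passed for this difference is not given here. With the replicate block 16 genes were called in cumulus cells, 0 in MGCs and 21 in the difference between cell types. In MGCs the block gave 9 genes at an unadjusted p of 0.05 or less, and the lowest limma adjusted p was 0.199 (Top2a). The share of all genes at that unadjusted limit was not counted with the block, so the 9 have no reference. By the labels, same-numbered libraries share only a number in both cell types. A CHR in the 100 bases before the start was present in 34.2% of member promoters. Depth limits Kifc1, Kif14, Kif18b, Plk1 and Espl1, which had as few as 11 to 58 reads in a library.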
